A study of Rattus norvegicus with 24 samples.

Results

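Aqp4, Gfap and Gja1 are transcripts of astrocytes, the glial cells whose endfeet wrap the vessels of the brain cortex. They were followed here through every probe that carries 1 of these symbols alone in the platform annotation. The 3 genes, of 14218 with a probe of their own, had 7 of the 31099 probes, 3 for Aqp4, 1 for Gfap and 3 for Gja1. Expression had been measured in cortical microvessels of rats in 3 groups of 8 arrays. HAL rats had a portocaval anastomosis, a shunt that takes portal blood around the liver, and 24 h afterwards their hepatic artery was tied. HEP rats had the same anastomosis, and 24 h afterwards the whole liver was removed. Sham rats underwent a fictitious operation, also in 2 steps. HAL and HEP thus share the anastomosis and differ in the second operation, and all rats were killed 8 to 12 h after it. Strain, sex and age are not given in the sources used here. The labels also leave unsaid whether the arrays of a group come from different rats, and the p-values then cover only the spread between arrays, which may be technical.

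The endfoot is the part of the astrocyte that meets the basement membrane of the vessel. Aqp4 encodes its water channel, which a complex of dystrophin, dystroglycan and syntrophin holds at the membrane that faces the vessel. Gja1 encodes the main connexin of astrocytes, which forms the gap junctions that couple endfeet to each other. Gfap encodes the intermediate filament protein of astrocytes and is widely used as a marker of their reactive state. Astrocytes also detoxify ammonia by making glutamine, and their swelling is a known feature of brain oedema in acute liver failure. The comparisons ask whether these transcripts differ between the vessels of each model and Sham vessels, and between the models. In such bulk samples fewer attached endfeet and less RNA per cell cannot be told apart.

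Each cell of the table used here was taken as the decimals of a log2 signal, with the integer part and any leading or trailing zeros missing. A signal below 10 then has 9 digits and a signal from 10 on has 8. A probe was taken as below 10 where at least 15 of its 24 cells had 9 digits, and as at 10 or above where none had. With 1 to 14 such cells it was taken as near 10. Near 10 the integer part was set from the digit count, to 9 for 9-digit cells and to 10 for 8-digit cells. This is an assumption, since a value below 10 that lost a zero also has 8 digits. The digit count also cannot tell 9 from a lower integer part, or 10 from a higher one. Such a cell would be misread by at least a whole unit. For the other probes the integer part is unknown. Their values just below and just above a whole unit may lie close together, so decimals were treated as points on a circle of 1 log2 unit. The resultant length describes how tightly such points cluster, from 0 for an even spread to 1 for identical values. A difference between groups is known only up to a whole unit. Cells shorter than expected, 20 of the 168 cells of these probes, were not read, which leaves out every decimal below 0.1 of probes away from 10.

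Of 20 astrocyte marker genes with a probe, 7 had one at 10 or above on all 24 arrays, Gfap and Gja1 among them, together with the glutamine synthetase Glul, the glutamate transporter Slc1a3, Aldoc, Atp1b2 and Mlc1. The same held for 13 of 16 endothelial markers, among them the claudin Cldn5, for 4 of 6 markers of perivascular fibroblasts, 3 of 6 of smooth muscle, 3 of 9 of pericytes and 2 of 9 of oligodendrocytes (Mbp and Cldn11), and for 0 of 14 neuron and 0 of 9 microglia markers. Of all 31099 probes 1933 were at 10 or above. Near 10 were 6 of 24 neuron probes, 5 of 33 astrocyte probes and 0 of 11 microglia probes. The count of 0 for neurons thus does not show that their RNA was absent. Probes differ in affinity, so these classes rank neither genes nor cell types. Aqp4 had 1 probe near 10 and 2 below 10, and Gja1 had 1 at 10 or above and 2 below 10.

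No difference from Sham passed the test in either model for the probes of Aqp4 and Gja1 that could be read, and Gfap could not be read. Differences were read and tested with limma for 3 probes, Aqp4 1372190_at, Gja1 1372002_at and Gja1 1369639_at. A probe away from 10 was read only where its resultant length over all arrays was at least 0.6 and each group had at least 4 readings. In limma with Benjamini-Hochberg adjustment 0 of the 3 passed an adjusted p of 0.05 in HAL, against 0.686% of all 11661 probes read. In HEP 0 of 3 passed, against 0.36% of all probes, and between HAL and HEP 0 of 3, against 0% of all. At an unadjusted p under 0.05 the counts were also 0 of 3 in each comparison, against 1557, 1085 and 825 of the 11661 probes in HAL, in HEP and between the models. The other 4 probes, Gfap among them, spread too widely around the circle to be read on a line. A shift between groups can push a probe below the limit on its resultant length at less than 0.5 of a unit. Wider spread within groups lowers that size further. The tested Gja1 probes could therefore show small changes only.

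Aqp4 1372190_at was the only member probe read as a level, under the assumption on integer parts given above. Its log2 signal had a lowest, median and highest reading of 9.68, 10.17 and 10.87 in HAL vessels, of 9.81, 10.35 and 10.997 in HEP vessels and of 9.37, 10.41 and 10.84 in Sham vessels. It lay at 10 or above on 5 of 8 HAL, 7 of 8 HEP and 6 of 8 Sham arrays, so the 3 groups overlapped almost completely. Its mean was 10.19 ± 0.39 in HAL, 10.39 ± 0.34 in HEP and 10.33 ± 0.52 in Sham (SD, n = 8 each). The difference was -0.14 for HAL minus Sham (SE 0.20, 95% interval -0.56 to 0.28, adjusted p = 0.812 in limma). For HEP minus Sham it was 0.06 (95% interval -0.36 to 0.48, adjusted p = 0.963 in limma). HAL minus HEP was -0.20 (95% interval -0.62 to 0.21, adjusted p = 0.861 in limma). The exact two-sided permutation test of the difference over arrays gave p = 0.545, 0.785 and 0.288 for these 3 comparisons. HAL minus Sham was -0.28 without Sham replicate 1 and -0.07 without Sham replicate 5, and HAL minus HEP was -0.30 without HAL replicate 6 and -0.12 without HEP replicate 1. The differences were smaller than the SD of each group, and the intervals do not show that the groups are alike. Levels, differences and intervals hold only if the integer parts were set rightly, which was not tested.

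**Figure D1:**
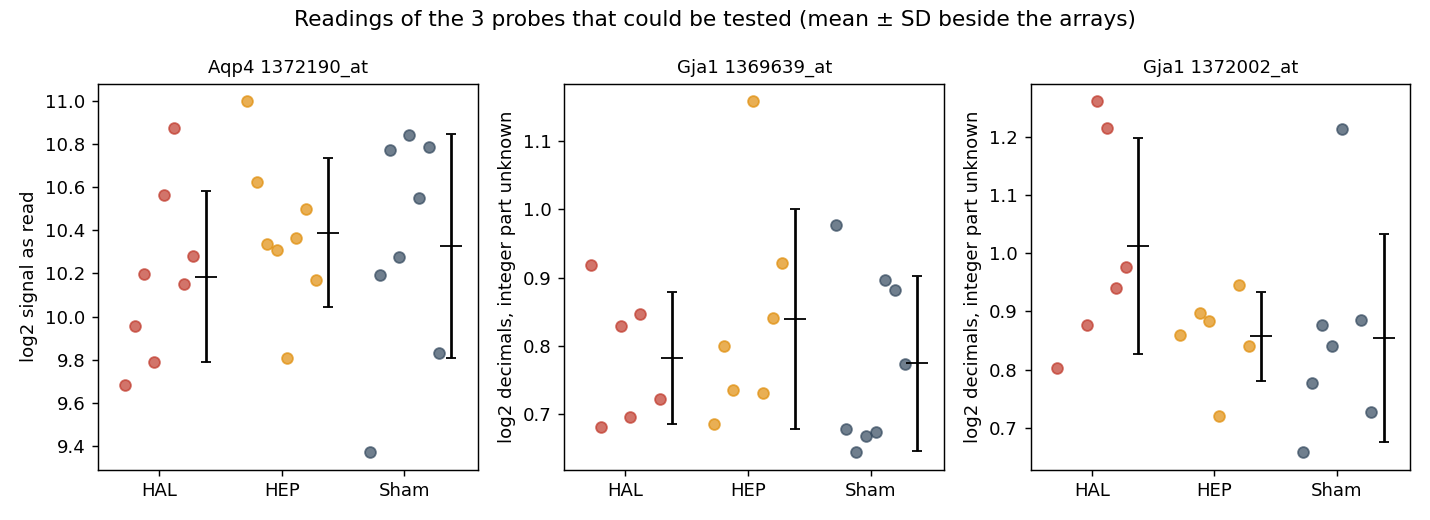
Readings of the 3 probes tested, 1 point per array, for HAL, HEP and Sham, with the group mean ± SD beside them (log2). Aqp4 1372190_at is drawn at its level around 10, with the integer part set by assumption. Both Gja1 probes are drawn as decimals whose integer part is unknown, where a value above 1 lies in the next unit. The groups overlap in all 3 panels, and Gja1 1372002_at has the highest mean in HAL, 1.01 against 0.85 in Sham.

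Gja1 1372002_at was the probe of the connexin that lay at 10 or above on every array. Its decimals ran from 0.80 over a median of 0.96 to 1.26 on 6 HAL arrays, where values above 1 lie in the next unit. They ran from 0.72 over 0.87 to 0.95 on 6 HEP arrays and from 0.66 over 0.84 to 1.21 on 7 Sham arrays. HAL arrays thus lay somewhat higher, with 5 of 6 above the Sham mean, but within the Sham range except for 2 of them. The top of that range is Sham replicate 5 alone, and the other Sham arrays read ended at 0.89. Short cells, 2 in HAL, 2 in HEP and 1 in Sham, were not read. With leading zeros put back in these, the circular means were 0.0169 in HAL, 0.912 in HEP and 0.845 in Sham, where 0.0169 may lie in the next unit. The mean was 1.01 ± 0.19 in HAL (SD, n = 6), 0.86 ± 0.08 in HEP (SD, n = 6) and 0.85 ± 0.18 in Sham (SD, n = 7). HAL minus Sham was 0.16 (SE 0.09, 95% interval -0.02 to 0.34, adjusted p = 0.436 in limma, p = 0.142 in the exact permutation test). This difference was 0.22 without Sham replicate 5 (adjusted p = 0.221 in limma) and 0.11 without HAL replicate 5 (adjusted p = 0.596 in limma). HEP minus Sham was 0.0035 (95% interval -0.17 to 0.18, adjusted p = 0.994 in limma), and its sign turned when each array was centred on its median. HAL minus HEP was 0.15 (95% interval -0.03 to 0.34, adjusted p = 0.732 in limma, p = 0.102 in the exact permutation test).

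Gja1 1369639_at, below 10, had the tightest decimals of all 7 probes over the arrays read. Its resultant length of 0.741 was above that of 84.4% of the probes of its class. Its decimals ran from 0.68 over a median of 0.78 to 0.92 on 6 HAL arrays, from 0.69 over 0.80 to 1.16 on 7 HEP arrays and from 0.64 over 0.73 to 0.98 on 8 Sham arrays. The groups overlapped, with 1 HEP array above all others. Its mean was 0.78 ± 0.10 in HAL (SD, n = 6), 0.84 ± 0.16 in HEP (SD, n = 7) and 0.77 ± 0.13 in Sham (SD, n = 8). HAL minus Sham was 0.0079 (95% interval -0.14 to 0.16, adjusted p = 0.980 in limma), with a sign that turned under centring of the arrays. HEP minus Sham was 0.07 (95% interval -0.08 to 0.21, adjusted p = 0.845 in limma), and HAL minus HEP was -0.06 (95% interval -0.21 to 0.10, adjusted p = 0.907 in limma). Without HEP replicate 5, the array read at 1.16, HEP minus Sham was 0.0117 and HAL minus HEP was -0.0038. On this probe the Gja1 signal differed between groups by less than the spread between arrays, with intervals that reach no further than 0.21 on the log2 scale. A larger change could have kept the probe from being read, so the intervals exclude neither larger changes nor those close to a whole unit. Of its cells 2 in HAL and 1 in HEP were too short to read. With leading zeros put back in these, the circular means were 0.84 in HAL, 0.84 in HEP and 0.77 in Sham. The resultant lengths were then 0.648 in HAL and 0.575 in HEP, against 0.853 and 0.663 over the arrays read.

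**Figure D2:**
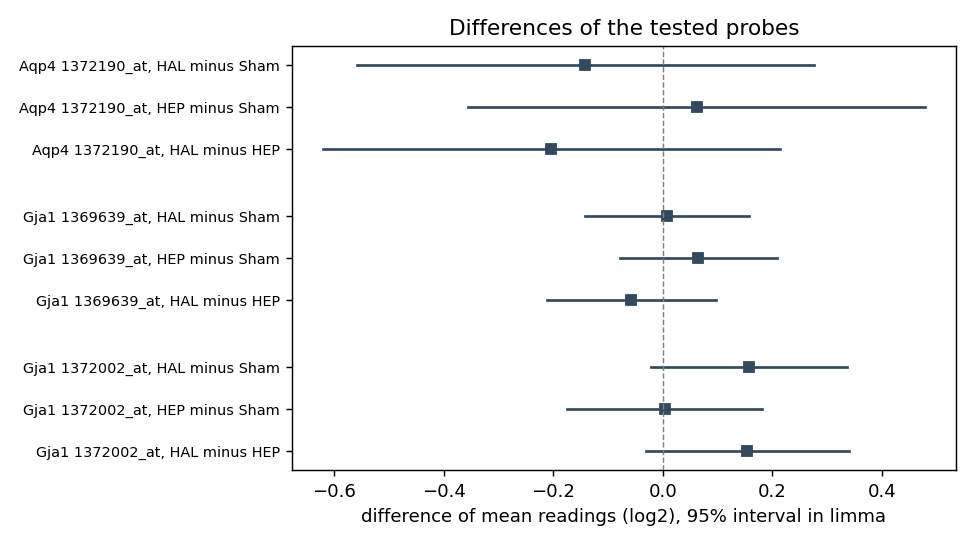
Differences of mean readings of the 3 tested probes (squares, log2) with their 95% intervals in limma, for HAL minus Sham, HEP minus Sham and HAL minus HEP. All 9 intervals include 0. Those of Gja1 1369639_at are the narrowest and those of Aqp4 1372190_at, from -0.62 to 0.48, the widest.

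Gfap could be compared by its decimals only. Its probe, 1368353_at, lay at 10 or above on every array, with 21 cells of 8 digits and 3 shorter ones. The 6 HAL arrays read had decimals of 0.267, 0.307, 0.397, 0.404, 0.428 and 0.685, with a resultant length of 0.712. The 8 HEP arrays had decimals of 0.1035, 0.307, 0.362, 0.401, 0.515, 0.657, 0.791 and 0.919, and the 7 Sham arrays of 0.172, 0.298, 0.340, 0.620, 0.746, 0.833 and 0.997. HAL arrays were bunched, while HEP and Sham arrays lay all around the circle, with resultant lengths of 0.190 and 0.0567. The HAL value leaves out 2 short cells, and with these read as 0.0047 and 0.0979 it was 0.448, against 0.190 in HEP and 0.175 in Sham. Whether the spread itself differs between groups was not tested. Gfap signal thus differed widely between arrays of the same group in HEP and Sham, and over all arrays its resultant length of 0.261 lay above that of only 20.2% of probes at 10 or above. In the undirected test described next p was 0.456 for HAL against Sham, 0.844 for HEP against Sham and 0.768 for HAL against HEP, by exact permutation. No direction of Gfap could be read in either model.

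**Figure D3:**
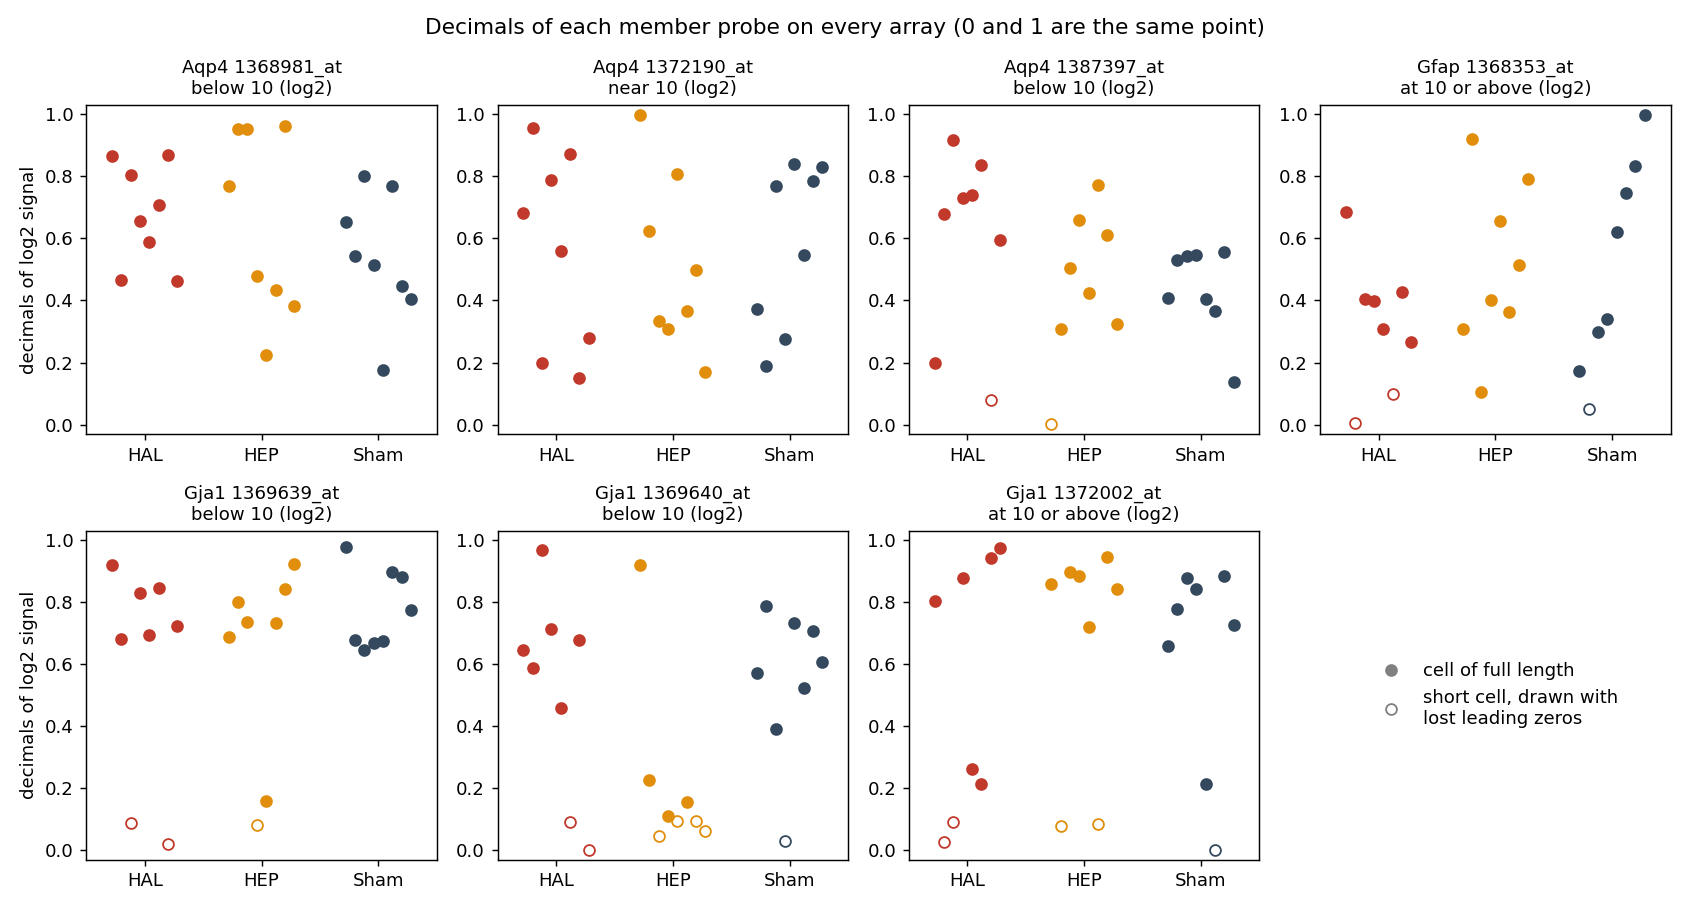
Decimals of the log2 signal of all 7 probes on every array, for HAL, HEP and Sham, where 0 and 1 are the same point. Filled points are cells of full length, and open points are short cells drawn as if leading zeros had been lost, which places them below 0.1 by construction. Gfap is spread over the whole circle in HEP and Sham, and 3 of the 4 filled HEP points of Gja1 1369640_at lie from 0.112 to 0.228, while those of HAL and Sham lie at 0.390 or above.

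An undirected exact permutation test, chosen after the data were seen, was used for all 7 probes. It asks whether the decimals of the groups sit at different places on the circle, without saying which is higher, and it rearranges only the arrays read. It was run on every probe with at least 4 readings in both groups, 30485 in HAL against Sham, 30482 in HEP against Sham and 30514 in HAL against HEP. After Benjamini-Hochberg adjustment it called 0 of the 7 probes in each comparison, against 0% of all probes. The smallest p that 8 against 8 arrays can give in this test is 0.000155. It is the same for 7 against 8 readings, and still fewer give a larger one. After adjustment over so many probes this count of 0 thus says little. At an unadjusted p under 0.05 it named 1 of the 7 probes in HAL, against 12% of all probes. It named 1 of 7 in HEP, against 9.62% of all probes, and 1 of 7 between HAL and HEP, against 6.53%. A share of 1 in 7 is near the background in the comparisons with Sham. Between HAL and HEP 1 probe is too few to tell the share from the background.

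Aqp4 1387397_at was the probe named in HAL. Its HAL decimals were 0.197, 0.596, 0.680, 0.729, 0.741, 0.837 and 0.917, and 1 HAL cell was too short to read. Its HEP decimals were 0.308, 0.325, 0.4245, 0.506, 0.610, 0.661 and 0.772, also with 1 short cell. Its Sham decimals were 0.138, 0.366, 0.4045, 0.407, 0.531, 0.544, 0.547 and 0.555. Of the 7 HAL values 6 lay above every Sham value, and the remaining HAL value lay below all but 1 of them. The circular means were 0.761 in HAL, 0.510 in HEP and 0.457 in Sham, so HAL minus Sham was 0.30 by the shorter way round the circle, or -0.70 by the longer. In the undirected exact permutation test p was 0.0042 for HAL against Sham (adjusted p = 0.214), 0.560 for HEP against Sham (adjusted p = 0.895) and 0.0530 for HAL against HEP (adjusted p = 0.769). The shift did not pass adjustment. For HAL minus Sham the near-10 probe of the same gene had -0.14, and Aqp4 1368981_at had 0.12 by the shorter way round the circle, and neither passed its test.

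Aqp4 1368981_at lay below 10 with 9 digits on all 24 arrays, and no reading was lost. Its decimals had a lowest, median and highest value of 0.463, 0.682 and 0.869 in HAL, of 0.224, 0.623 and 0.962 in HEP and of 0.175, 0.528 and 0.800 in Sham. HEP arrays fell into 4 values from 0.224 to 0.479 and 4 from 0.767 to 0.962, so their circular mean has no meaning, with a resultant length of 0.0782. The undirected exact permutation test gave p = 0.317 for HAL against Sham, 0.467 for HEP against Sham and 0.381 for HAL against HEP.

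Gja1 1369640_at was the probe named in HEP and between the models. Its HEP decimals of 9 digits were 0.112, 0.157, 0.228 and 0.920, while the other 4 HEP cells had 8 digits, as had 1 HAL and 1 Sham cell, and 1 HAL cell had 7. Its HAL decimals were 0.459, 0.588, 0.646, 0.679, 0.714 and 0.967, and its Sham decimals were 0.390, 0.524, 0.5715, 0.606, 0.7075, 0.733 and 0.786. No HEP value lay within the Sham range. If the 4 short HEP cells lost a leading zero they stand for 0.0454, 0.0638, 0.0935 and 0.0952, next to 0.112 and 0.157. The same reading gives 0.0924 and 0.0019 for the short HAL cells and 0.0295 for the short Sham cell, among the HEP values. If instead no leading zero was lost, the 4 short HEP cells stand for decimals between 0.454 and 0.952. The short HAL cells then stand for 0.924 and 0.1865, and the short Sham cell for 0.2945. In that case the short cells lie at 10 or above or lost trailing zeros. The deposited digits do not settle which reading holds. In the undirected exact permutation test p was 0.00606 for HEP against Sham (adjusted p = 0.333), 0.0143 for HAL against HEP (adjusted p = 0.689) and 0.705 for HAL against Sham (adjusted p = 0.915). With 4 HEP and 7 Sham readings the smallest p this test can give is 0.00303. With leading zeros put back in every short cell of all probes p was 0.000466 for HEP against Sham (adjusted p = 0.210). The circular means were 0.656 in HAL, 0.113 in HEP and 0.623 in Sham, and HEP minus Sham was 0.49 one way round the circle and -0.51 the other. These lengths are nearly equal, so no direction can be given. The other 2 probes of Gja1 had HEP minus Sham of 0.07 and 0.0035, and neither passed.

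Whether the probes of 1 gene moved together across arrays could not be shown. If 2 probes follow each other by equal amounts, the difference of their decimals clusters and its resultant length approaches 1. Without joint movement it lies near the product of the lengths of both probes only over many arrays. Over the 12 to 24 arrays here it tends to lie above a small product. A length above the product therefore does not show joint movement. Over the 6 pairs of probes of the same gene this length had a median of 0.307, from 0.0496 to 0.359, and 4 of 6 lay above that product. Over the 15 pairs of different genes among the 7 probes it had a median of 0.272, from 0.0055 to 0.616, and 13 of 15 lay above it. Of the 3 Gja1 pairs 1 did, with 0.359 against 0.323, and the others had 0.302 against 0.415 and 0.318 against 0.358. The highest was that of Gja1 1372002_at and Aqp4 1387397_at over 17 arrays. All probes of an array share its RNA and its normalisation, and these lengths are a description only. The arrays' median deviations over the probes read lay between -0.0607 and 0.0336 on the log2 scale.

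**Figure D4:**
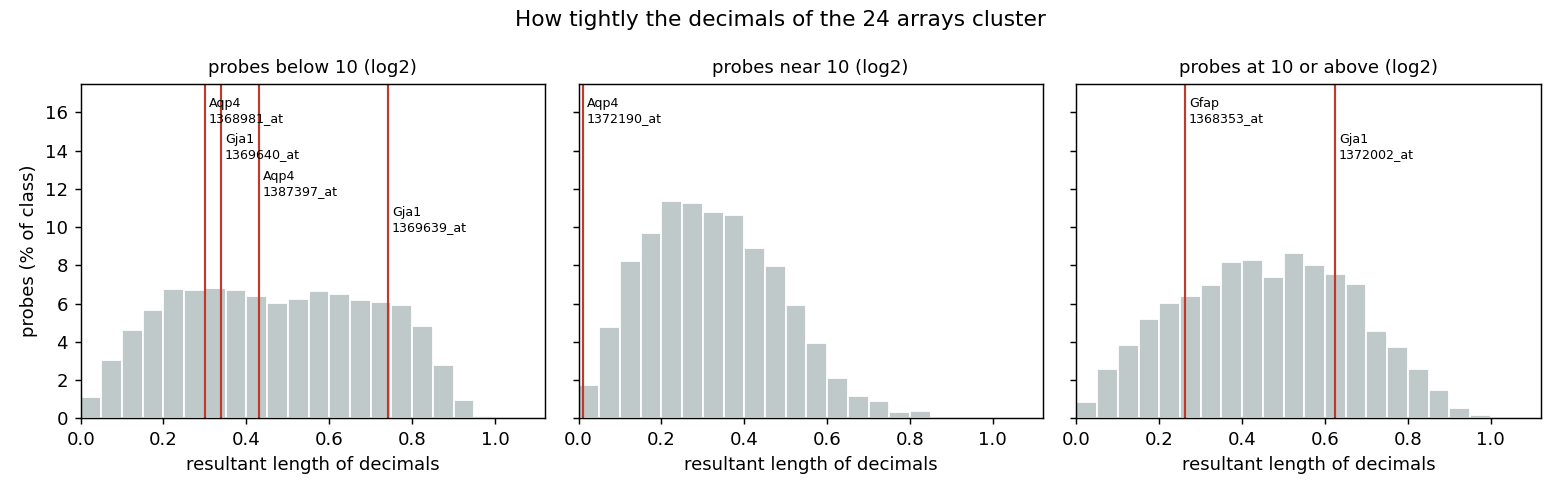
Resultant length of the decimals over the 24 arrays, as the percentage of probes in each bin, for probes below 10, near 10 and at 10 or above (log2), with the 7 member probes as red lines. Aqp4 1372190_at at 0.0100, Gfap at 0.261 and Aqp4 1368981_at at 0.300 lie in the lower part of their classes, and Gja1 1369639_at at 0.741 and Gja1 1372002_at at 0.623 in the upper part.

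Genes whose readings followed those of a member most closely were sought among probes read, by Pearson's r over at least 20 shared arrays. For Aqp4 1372190_at they were Ppp2ca (r = 0.755, 24 arrays), Msmo1 (r = 0.726, 20 arrays) and Timm17a (r = 0.725, 20 arrays), out of 5132 probes compared. For Gja1 1369639_at they were Dck (r = 0.674, 20 arrays), Sec14l3 (r = 0.660, 21 arrays) and Leng9 (r = 0.656, 20 arrays), out of 1564. None of these 6 is on the astrocyte list, of which only 9 probes were read, so this says little. Whether r of this size exceeds what so many comparisons give was not tested. Each gene was represented by its probe read with the largest resultant length, and Gfap had none that was read.

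Of 22 astrocyte markers 8 were read, with 9 probes that include the 3 member probes, and 0 passed in either model. Their median difference was 0.158 in HAL and 0.0357 in HEP, against 0.0235 and 0.0115 over all probes read, and the HAL median is the value of Gja1 1372002_at itself. S100b, a calcium-binding protein of astrocytes, had the smallest p, with readings of 10.51 ± 0.33 in HAL (n = 8), 10.65 ± 0.27 in HEP (n = 5) and 10.33 ± 0.31 in Sham (SD, n = 7), and adjusted p of 0.650 and 0.586 in limma for HAL and HEP against Sham. Neuron markers were read with 7 probes, 0 of which passed, and their medians were 0.160 in HAL and -0.0642 in HEP. Whether neuronal RNA bears on the astrocyte values was not tested.

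Of 14 genes of the dystrophin complex and endfoot anchoring 7 were read and 0 passed in either model. Their median difference was -0.0322 in HAL and 0.0146 in HEP. Sgce, a sarcoglycan, came closest, with decimals of 0.70 ± 0.12 in HEP (n = 7) and 0.94 ± 0.17 in Sham (SD, n = 5), a difference of -0.24 (adjusted p = 0.246 in limma). Of 11 connexins and gap junction partners 6 were read, with 9 probes, and 0 passed, with medians of 0.0206 in HAL and 0.0035 in HEP, which in HEP is the value of Gja1 1372002_at. Gjc1, a connexin of mural cells, had readings of 10.23 ± 0.19 in HAL (n = 7) and 10.51 ± 0.12 in Sham (SD, n = 8), a difference of -0.28 (adjusted p = 0.108 in limma). Without HAL replicate 5 its difference was -0.32 and passed (adjusted p = 0.0468 in limma).

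Reactive astrocyte genes and intermediate filaments were read for few members. Of 17 reactive astrocyte genes 5 were read and 0 passed, with medians of 0.0670 in HAL and -0.0157 in HEP. S1pr3, a receptor of sphingosine phosphate, had readings of 9.696 ± 0.30 in HAL (n = 7) and 10.21 ± 0.14 in Sham (SD, n = 6), a difference of -0.51 (adjusted p = 0.115 in limma). Of 9 intermediate filament genes Synm alone was read, with 3 probes, and 0 passed. The probe of Synm, encoding synemin, with the smallest p had a HAL minus Sham difference of 0.13 (adjusted p = 0.295 in limma).

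Of 11 genes of water channels and cell volume 5 were read and 0 passed, with medians of 0.153 in HAL and 0.0706 in HEP. Slc12a2, a sodium, potassium and chloride cotransporter, had decimals of 1.14 ± 0.17 in HAL (n = 5) and 0.92 ± 0.09 in Sham (SD, n = 6). Values above 1 lie in the next unit. Its HAL minus Sham difference was 0.22 (adjusted p = 0.265 in limma), and 0.14 with short cells restored (adjusted p = 0.332 in limma). Of 10 genes of ammonia and glutamate handling 4 were read, with 5 probes. Of these 1 passed in HAL, downward, and 0 in HEP, with medians of -0.116 and -0.0378. It was the probe of Slc38a5, a glutamine transporter of brain endothelium and no astrocyte marker, with readings of 9.67 ± 0.34 in HAL (n = 8) and 10.46 ± 0.26 in Sham (SD, n = 7), a difference of -0.79 (adjusted p = 0.00766 in limma, against 0.506% of all probes called lower). HEP averaged 9.93 ± 0.24 (SD, n = 6), with adjusted p = 0.147 against Sham in limma. This probe was read as near 10, so its values rest on the assumption on integer parts given above.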

How the data were processed

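RNA of cortical microvessels was hybridised to 1 array per sample, 24 in all. Per the submitters' processing notes the authors made log2 signals with RMA, of a version the sources used here do not name. The deposited table, as provided here, holds whole numbers without the integer part, and 0 of 746376 cells end in 0. Per the labels' protocols the label kit was one for whole-transcript arrays, while the probes are those of a 3' expression array. Decimals were read as described above and, away from 10, placed within 0.5 of the circular mean of the probe. Probes near 10 were read as 9 or 10 plus their decimals. limma 3.58.1 in R 4.3.3 was fitted to group means over 24 arrays, with Benjamini-Hochberg adjustment over 11661 probes. A number of 8 arrays per group limits the precision. Reading and tests were also run on simulated data. There limma called only a small part of the planted changes, so a count of 0 does not show that a change is absent. Python 3.11.15 with numpy 2.4.6 and pandas 2.3.3 was used. The undirected test was added after the data were seen. Named are all member probes, the 3 genes most like each member, and in each list of related genes those called or else the smallest p. The members and lists were chosen with earlier results of these data known. Sample numbers were not taken to pair arrays.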

Additional observations from a re-analysis of the deposited data

Results flagged for a closer look

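In Gja1 1372002_at the Sham replicate 5 array was read at 1.21, far from the other 6 Sham arrays read, which lay between 0.66 and 0.89. This array was the only one picked out among 9 groups of readings, and chance picks out about 1 in 20 groups. Its decimals are 0.213, and the reading assumes that they belong to the next unit.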

How the results depend on the processing

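None of the 222 values of the 3 tested probes under other settings passed in limma, and the smallest adjusted p was 0.221. HAL minus Sham of Gja1 1369639_at was -0.0052 with arrays centred and -0.0019 with the replicate block, and -0.0195 to 0.0369 with 1 array left out. HEP minus Sham of Gja1 1372002_at was -0.0082 with short cells restored, -0.0028 with arrays centred, -0.0016 with array weights and -0.0092 with the replicate block, and -0.0291 to 0.0634 with 1 array left out. HEP minus Sham of Aqp4 1372190_at ran from -0.0741 to 0.145 with 1 array left out, HAL minus Sham from -0.278 to -0.068 and HAL minus HEP from -0.301 to -0.117. Correlations of same-numbered arrays ran from -0.0781 to 0.127. They were not compared with those of differently numbered arrays, so they do not settle whether the numbers pair arrays. With the replicate block no call of a member probe or of a named gene it could fit changed. Of all probes 75 passed in HAL and 50 in HEP with this block. The undirected unadjusted p ran from 0.000666 to 0.0113 for Aqp4 1387397_at in HAL and from 0.00476 to 0.0167 for Gja1 1369640_at in HEP with 1 array left out. Both probes were picked for the smallest p of this test against Sham. For Gja1 1369640_at 0.00476 is the smallest p the test can give without Sham replicate 2, and 0.00833 that without HEP replicate 1. Leaving out an array whose cell was not read changed nothing. These ranges therefore do not show that either shift is stable. Over all probes 80 passed in HAL, 6 of the 512 at 10 or above alone, and 43 to 86 with 1 array left out (43, 50 and 46 without Sham replicate 1, 2 and 3, and 47 and 48 without HAL replicate 4 and 6). In HEP 42 passed, 1 of those 512, 71 with array weights, 26 without HEP replicate 7 and 146 without HEP replicate 8. Between HAL and HEP 0 passed, but 1 with arrays centred, 5 without HAL replicate 7 and 1 without HEP replicate 2. Of the 7 named genes of related lists none reversed, Slc38a5 passed in all 25 settings that gave a value, and Gjc1 passed only without HAL replicate 5. No setting varied the integer part assumed for probes near 10, those of Slc38a5 and Gjc1 among them. A resultant length of 0.75 left no Gja1 probe. Signal over background was not analysed here.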
